A study of Rattus norvegicus with 6 samples.

Results

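The 10 genes described here are the genes of cellular iron handling named Ftl1, Fth1, Tfrc, Slc40a1, Slc11a2, Ireb2, Aco1, Ncoa4, Steap3 and Pcbp1. They were taken by symbol from a table of 22601 genes, and each symbol matched 1 row. Expression was measured by RNA-seq in RBL-2H3, a rat basophilic leukemia line used as a stand-in for mast cells. It is labelled WT, and as a tumour line it is a limited model of those cells. There were 3 control libraries and 3 libraries from cells treated for 6 h with 10 µM PIO, which the series title calls a PPARγ agonist. All cells grew in MEM with fetal bovine serum, so both groups had the same iron source as far as the labels say. No vehicle or time is given for the control libraries, so an effect of vehicle or of time in culture and one of PIO cannot be told apart. The labels do not say that replicates came from separate cultures, so a p-value here covers the variation among libraries, part or all of which may be technical.

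A cell takes up iron mostly as transferrin bound to the transferrin receptor, releases and reduces it in the endosome, and carries it into the cytosol through a divalent metal transporter. Iron that is not used is stored in ferritin, a hollow shell built from heavy and light chains, or leaves the cell through ferroportin. Iron regulatory proteins bind stem-loops in several of these mRNAs when iron is scarce, which protects the mRNA of the transferrin receptor and blocks translation of ferritin. Control of ferritin by this route acts on the protein and need not show in mRNA. Heme oxygenase frees iron from heme, and the ferritin genes are known targets of the transcription factor NRF2.

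In these cells the mRNAs of storage were far above those of uptake, and the mRNA of the exporter was low, at 25 to 49 reads per library. With PIO both ferritin chains, the endosomal transporter Slc11a2 and the iron regulatory protein gene Aco1 were higher in each library than in every control library, by 5.78% to 15.2% in the mean. Ncoa4, the receptor for ferritin breakdown, was lower in each PIO library than in every control library, with a change of the mean of -8.06%. None of these differences passed the test over all genes. Of the 10 genes 9 were abundant enough to test (a mean of at least 0.5 FPKM, that is fragments scaled to gene length and to the reads of the library), and 0 of these 9 passed limma with Benjamini-Hochberg adjustment at 0.05. Their adjusted p lay between 0.294 and 0.950. Over all 10410 genes tested 4 passed, which is 0.0384%. At an unadjusted p under 0.05 stood 4 of the 9, all higher (Ftl1, Slc11a2, Aco1 and Fth1), against 6.36% of all genes higher at that level. That count was 1 without control replicate 3, without PIO replicate 2 or without PIO replicate 3, and 2 without control replicate 2. In the same order, 1222 of 10411, 790 of 10413, 738 of 10413 and 891 of 10421 genes stood at that level in either direction. The count of members was also 2 with each library rescaled to the same sum of FPKM and in the fit that blocked on replicate number. Over all genes 1228 and 1216 of 10410 stood at that level in these 2 fits, in either direction. Without control replicate 1 there were 5 members, the same 4 higher and Ncoa4 lower, beside 1433 of 10419 genes in either direction. By another tool, limma-voom on the reads recovered from the FPKM, 0 of the 9 passed and 4 stood at an unadjusted p under 0.05, against 13.3% of all genes in either direction in that fit.

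PIO values lay above all control values for 4 of the 10 genes, against 10.5% of all genes tested, and below them for 1, against 8.09%. The gap between the groups was clear of the counting error of 1 library only in Ftl1 (5.42% against 0.876% to 0.978%). It was less than that error in Fth1 (0.558% against 0.813% to 0.859%), Ncoa4 (0.299% against 1.75% to 1.97%) and Slc11a2 (3.53% against 3.63% to 4.11%). In Aco1 it was within the range of that error (3.53% against 3.40% to 3.61%). The next counts were added after the data were seen. When each library was rescaled to the same sum of FPKM, 4 genes were still higher without overlap and 2 lower (Ireb2 joined Ncoa4), with 5.99% and 10.4% of all genes. With median-of-ratios scaling 3 were higher, without Fth1, and 2 lower, with 8.76% and 9.38% of all genes. Of the 9 tested genes 7 had a positive and 2 a negative log2 fold change, with a median of 0.07 beside 0.0094 over all genes. With each library rescaled to the same sum, 6 were positive, since Tfrc turned, and the medians were 0.042 and -0.018. Without control replicate 3 only 5 were positive.

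**Figure D1:**
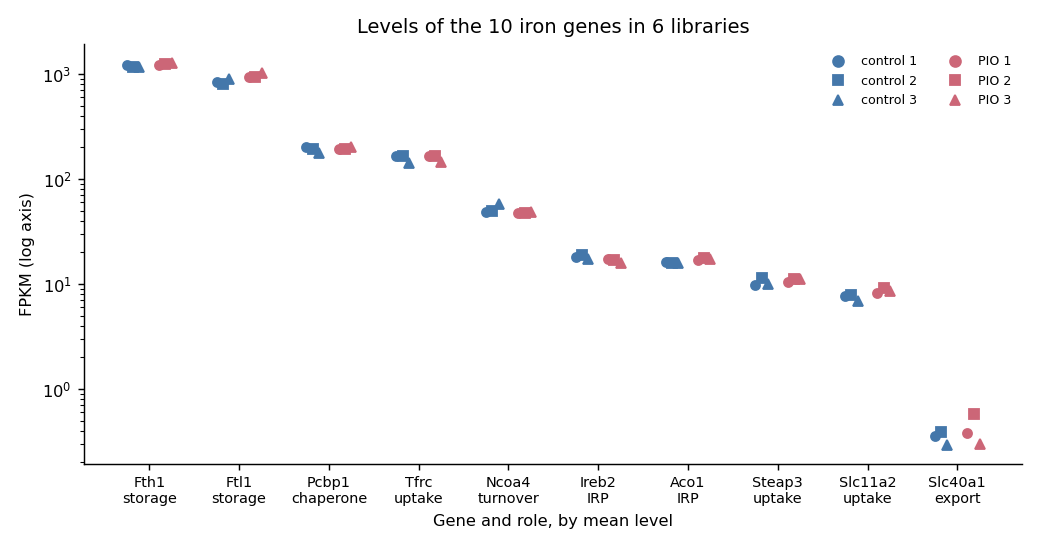
FPKM of the 10 iron genes on a log axis in 3 control libraries (blue) and 3 PIO libraries (red), 1 point per library, with the genes ordered by mean level. Fth1 and Ftl1 stand at the top, between 811 and 1273 FPKM, and Slc40a1 at the bottom, between 0.296 and 0.576 FPKM.

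Depth was similar in all libraries. The FPKM resolved into whole reads, and the totals that scaled them lay between 14048202 and 15084729 reads. Across genes, log2 values of any pair of libraries correlated at 0.992 to 0.996. The label of the line matched its markers. All 8 mast cell and basophil markers were abundant, with Ms4a2, an IgE receptor subunit gene, at 856 to 871 FPKM in control and 806 to 847 FPKM with PIO, and none of the 8 passed the test. Of 10 macrophage markers 3 (Marco, Cd14 and C1qa) were at 0 in every library, and the list summed to 1.69 to 1.98 FPKM in control and 1.77 to 2.14 FPKM with PIO. Of 6 hepatocyte markers Alb and Ttr were at 0 in every library, and the list summed to 1.90 to 2.72 FPKM in control and 2.29 to 3.18 FPKM with PIO. Most of that was Tf, the transferrin gene, at 1.86 to 2.46 FPKM in control and 2.13 to 2.94 FPKM with PIO. Of 10 erythroid markers Hbb, Slc4a1 and Ahsp were at 0 in every library, but 5 were abundant enough to test, and 0 of these passed. A hemoglobin alpha gene (listed as Hba2) stood at 205 to 315 FPKM in control and 229 to 269 FPKM with PIO. Epor was at 7.65 to 8.13 FPKM in control and 7.84 to 8.16 FPKM with PIO, and Gata1 at 3.39 to 10.0 and 3.74 to 7.24 FPKM. Hba-a1 was at 2.05 to 3.31 and 1.99 to 2.98 FPKM, and Klf1 at 1.33 to 2.32 and 1.59 to 2.14 FPKM, in the same order. In a bulk sample fewer cells with a transcript and less of it per cell cannot be told apart.

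The order of the levels per gene length was Fth1, Ftl1, Pcbp1, Tfrc, Ncoa4, Ireb2, Aco1, Steap3, Slc11a2 and Slc40a1 from high to low. Fth1 was the gene at rank 62 and Ftl1 at rank 85 of the table by mean FPKM, Tfrc at rank 498, and Slc40a1 at rank 10604. Neighbours in this order were separate in all 6 libraries with 1 exception. Ireb2 was above Aco1 in each control library, and their ranges overlapped with PIO (1.13 and 0.970 for the ratio of Ireb2 to Aco1 means).

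Fth1 (GeneID 25319) encodes the ferritin heavy chain, which oxidizes ferrous iron as it enters the shell. It measured 1210, 1159 and 1162 FPKM in control replicates 1 to 3 and 1217, 1246 and 1273 FPKM in PIO replicates 1 to 3. The groups did not overlap, but control replicate 1 and PIO replicate 1 were nearly level. The means were 1177 ± 28.5 and 1245 ± 28.1 FPKM (SD, n = 3 per group), an increase of 5.78%, with a log2 fold change of 0.08 on the log2(FPKM + 0.5) scale (SE 0.03, 95% confidence interval 0.0025 to 0.160, limma adjusted p = 0.390). Between 13540 and 15114 reads per library stood behind these values.

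Ftl1 (GeneID 29292) encodes the light chain, which helps the iron mineral to form inside the shell. It measured 847, 811 and 890 FPKM in control replicates 1 to 3 and 938, 941 and 1014 FPKM in PIO replicates 1 to 3. All PIO values were above all control values, and replicate 3 was the highest in both groups. The means were 849 ± 39.3 and 964 ± 43.2 FPKM (SD, n = 3), an increase of 13.5%, with a log2 fold change of 0.18 (SE 0.05, 95% confidence interval 0.076 to 0.290, limma adjusted p = 0.294). Reads numbered 10450 to 13043 per library. It had the lowest adjusted p of the 9 tested genes, and in the alternatives this p ran from 0.196 to 0.671.

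Ferritin genes have many processed copies in the rat genome, so reads can be split among them. The table lists a ferritin light chain 1-like gene, LOC100360087, at 25.3, 23.9 and 28.2 FPKM in control and 32.7, 29.6 and 29.8 FPKM with PIO. Its PIO values were all above its control values, as in 10.5% of all genes tested (log2 fold change 0.25, limma adjusted p = 0.304). How shared reads were assigned is not stated, so its values cannot be taken as independent of those of Ftl1. Its reads numbered 3.05% to 3.61% of those of Ftl1 in the same library, so assigning them all to Ftl1 would raise the reads of Ftl1 by that much. The other 7 ferritin entries beside Fth1 and Ftl1, the mitochondrial ferritin Ftmt and the Fthl17e gene among them, had at most 3 reads in any library.

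Tfrc (GeneID 64678) encodes the transferrin receptor, the main entry of iron. It measured 165, 167 and 141 FPKM in control replicates 1 to 3 and 167, 165 and 146 FPKM in PIO replicates 1 to 3. Replicate 3 was the low library in both groups, and the groups overlapped. The means were 158 ± 14.7 and 159 ± 11.3 FPKM (SD, n = 3), and the log2 fold change was 0.01 (SE 0.08, limma adjusted p = 0.950). The 95% confidence interval of -0.158 to 0.187 leaves room for a change of either sign, and without control replicate 3 the estimate was -0.065.

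Steap3 (GeneID 170824) encodes the reductase that turns ferric into ferrous iron in the endosome. It measured 9.88, 11.5 and 10.0 FPKM in control and 10.5, 11.3 and 11.2 FPKM with PIO. Control replicate 2 was above every PIO library, so the groups overlapped. The log2 fold change was 0.07 (SE 0.07, 95% confidence interval -0.088 to 0.228, limma adjusted p = 0.684), and it ranged from 0.032 to 0.135 when 1 library was left out.

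Slc11a2 (GeneID 25715) encodes the divalent metal transporter DMT1, which carries ferrous iron from the endosome into the cytosol. It measured 7.73, 7.92 and 6.97 FPKM in control replicates 1 to 3 and 8.20, 9.23 and 8.64 FPKM in PIO replicates 1 to 3. Each PIO library was above each control library. The means were 7.54 ± 0.502 and 8.69 ± 0.518 FPKM (SD, n = 3), an increase of 15.2%, with a log2 fold change of 0.19 (SE 0.07, 95% confidence interval 0.030 to 0.356, limma adjusted p = 0.366). It rested on 593 to 761 reads per library, with a counting error of 3.63% to 4.11%. The table gives 1 value per gene, so the known forms of this mRNA with and without an iron-responsive stem-loop were not separated.

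RefSeq windows of 250 bases before to 50 bases after a start site (build GRCr8) were found for 8 of the 10 genes, 9 windows in all, since Slc11a2 has 2. Ftl1 and Fth1 have no entry. PPARγ with its partner RXR is known to bind a direct repeat of AGGTCA with 1 base between the copies. That repeat was in 0 of the 9 windows and in 0.0538% of all 33469. A single AGGTCA on either strand was in 2 of the 9 windows, 1 of Slc11a2 and 1 of Ncoa4, and in 16.2% of all windows. NRF2 is known to bind a site whose core is TGACNNNGC, which was in the window of Ncoa4 and in 12.1% of all windows. Both stretches are shown because these 2 genes went in opposite directions, and capitals mark the match to AGGTCA as it reads on the gene's strand, TGACCT. In Ncoa4 the same letters begin the NRF2 core. The matches begin 99 bases before the start of Slc11a2 (chr7:133419019-133419052, minus strand) and 52 bases before that of Ncoa4 (chr16:7401725-7401758, plus strand), and Ncoa4 has another AGGTCA match 181 bases before its start. A match describes letters only.
Slc11a2: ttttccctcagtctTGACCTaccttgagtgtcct
Ncoa4: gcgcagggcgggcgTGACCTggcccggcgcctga

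Slc40a1 (GeneID 170840) encodes ferroportin, the known exporter of iron from cells. It measured 0.357, 0.394 and 0.296 FPKM in control replicates 1 to 3 and 0.384, 0.576 and 0.299 FPKM in PIO replicates 1 to 3. The groups overlapped, and PIO replicate 2 stood above the other 5 libraries. These values rest on 32, 33 and 26 reads in control and 32, 49 and 25 reads with PIO, so that counting error alone is 14.3% to 20% per library. Its mean of 0.384 FPKM was under the minimum for the test. In a fit of all 15429 genes above 0, with no minimum, the log2 fold change was 0.11 (SE 0.12, 95% confidence interval -0.172 to 0.383, limma adjusted p = 0.770). The mean was 20.2% higher with PIO, and the added 0.5 FPKM, which exceeds most of these values, shrinks the fold in this fit. The mRNA was detected in all 6 libraries. The increases seen in Fth1 and Ftl1, 5.78% and 13.5%, were below this counting error of 1 library.

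Aco1 (GeneID 50655) encodes iron regulatory protein 1, which acts as a cytosolic aconitase while it holds an iron-sulfur cluster and binds RNA without it. It measured 16.3, 15.9 and 15.7 FPKM in control replicates 1 to 3 and 16.9, 17.7 and 17.3 FPKM in PIO replicates 1 to 3. The groups were apart and each was tight. The means were 16.0 ± 0.292 and 17.3 ± 0.433 FPKM (SD, n = 3), an increase of 8.41%, with a log2 fold change of 0.11 (SE 0.04, 95% confidence interval 0.010 to 0.216, limma adjusted p = 0.377).

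Ireb2 (GeneID 64831) encodes iron regulatory protein 2, which is degraded when iron is plentiful. It measured 17.9, 18.8 and 17.4 FPKM in control replicates 1 to 3 and 17.4, 17.1 and 15.8 FPKM in PIO replicates 1 to 3. PIO replicate 1 was level with control replicate 3, so the groups touched, and the other PIO libraries were lower. The means were 18.1 ± 0.713 and 16.8 ± 0.856 FPKM (SD, n = 3), and the log2 fold change was -0.10 (SE 0.05, 95% confidence interval -0.229 to 0.022, limma adjusted p = 0.467). It was -0.0625 without PIO replicate 3.

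The ratio of Aco1 to Ireb2, which was chosen after the values were seen and is given without a test, was 0.909, 0.845 and 0.900 in control replicates 1 to 3. With PIO it was 0.966, 1.04 and 1.10 in replicates 1 to 3. Its ranges did not overlap between the groups, and its means were 0.885 ± 0.0349 and 1.03 ± 0.0654 (SD, n = 3).

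Ncoa4 (GeneID 619385) encodes the receptor that brings ferritin to autophagy for breakdown. It measured 48.6, 49.8 and 57.5 FPKM in control replicates 1 to 3 and 47.6, 47.2 and 48.5 FPKM in PIO replicates 1 to 3. Control replicate 3 stood above the other 5 libraries. The means were 52.0 ± 4.85 and 47.8 ± 0.622 FPKM (SD, n = 3), and the log2 fold change was -0.12 (SE 0.06, 95% confidence interval -0.259 to 0.026, limma adjusted p = 0.472). Without control replicate 3 the log2 fold change was -0.041.

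Pcbp1 (GeneID 500242) encodes a poly(rC) binding protein that delivers iron to ferritin and also binds RNA. It measured 201, 194 and 176 FPKM in control replicates 1 to 3 and 193, 192 and 201 FPKM in PIO replicates 1 to 3. The lowest value was that of control replicate 3, and the groups overlapped. The log2 fold change was 0.04 (SE 0.05, 95% confidence interval -0.077 to 0.159, limma adjusted p = 0.755), and it was -0.015 without control replicate 3. Its relative Pcbp2 was at 97.0 to 103 FPKM in control and 100.1 to 101 FPKM with PIO.

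**Figure D2:**
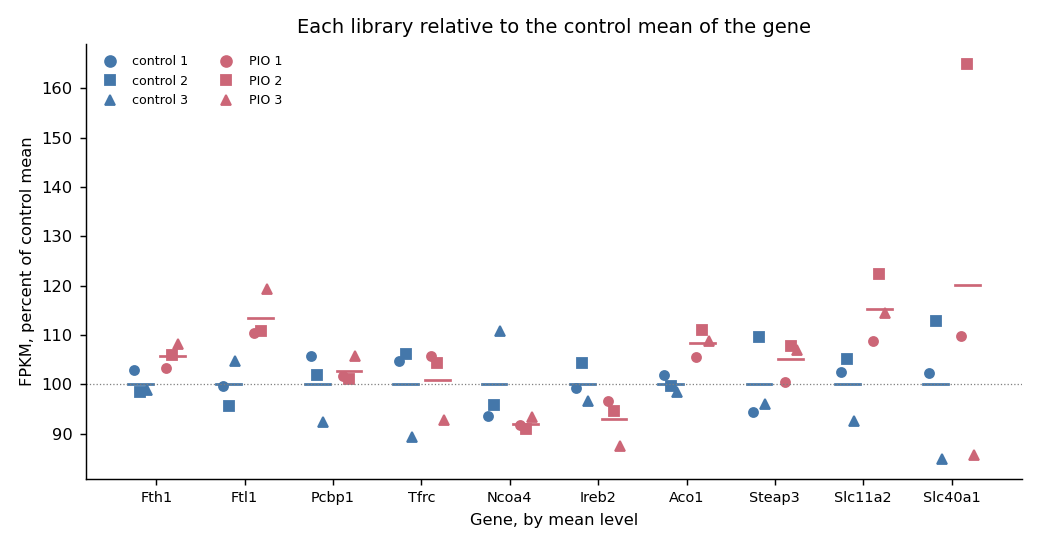
FPKM of each library as a percent of the control mean of the gene, with control in blue, PIO in red, 1 symbol per replicate number and bars at group means. PIO points lie above all control points for Fth1, Ftl1, Aco1 and Slc11a2 and below them for Ncoa4, and replicate 3 is the low library of both groups in Tfrc.

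**Figure D3:**
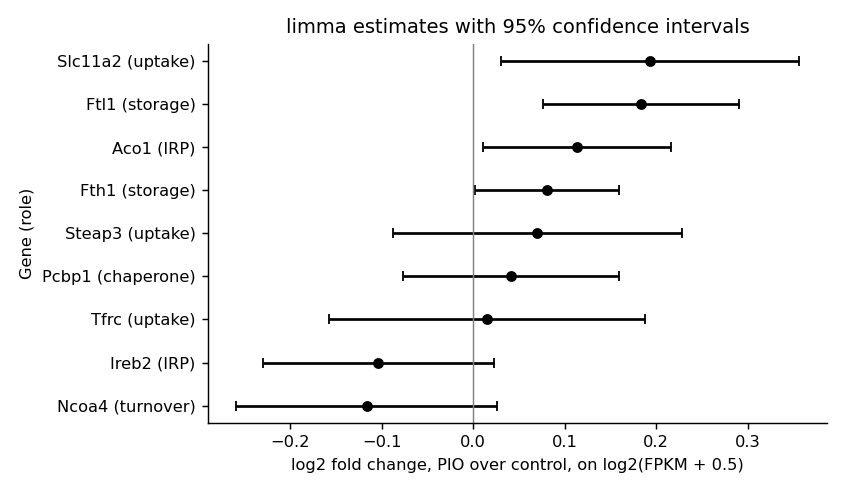
Log2 fold changes of PIO over control for the 9 tested genes, with 95% confidence intervals from limma and a line at 0. The intervals of Slc11a2, Ftl1, Aco1 and Fth1 lie above 0, those of the other 5 genes cross it, and none of the 9 passed after adjustment over all genes.

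Storage was then set against uptake and export within each library. Fth1 and Ftl1 together made up 2057, 1971 and 2052 FPKM in control replicates 1 to 3 and 2155, 2186 and 2287 FPKM in PIO replicates 1 to 3. That is 0.397% to 0.413% of all FPKM in control and 0.427% to 0.444% with PIO, and the groups did not overlap on either scale. The ratio of this sum to that of Tfrc, Slc11a2 and Steap3 was 11.3, 10.5 and 13.0 in control replicates 1 to 3 and 11.6, 11.8 and 13.8 in PIO replicates 1 to 3. Replicate 3 was the highest in both groups, where Tfrc was low, and the groups overlapped. The log2 difference was 0.10 (two-sided exact permutation test over libraries, p = 0.4), and 3 against 3 libraries cannot give a p below 0.1. Tfrc made up most of the lower sum. With the 3 uptake genes weighted equally on the log scale the difference was 0.034 (exact permutation p = 0.8), and the difference of the sums was 0.032 without control replicate 2, 0.019 without PIO replicate 3 and 0.182 without control replicate 3.

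The ratio of Fth1 to Ftl1, which reflects the make-up of the ferritin mRNA pool, was 1.43, 1.43 and 1.31 in control replicates 1 to 3. In PIO replicates 1 to 3 it was 1.297, 1.324 and 1.255. Control replicate 3 lay among the PIO libraries, so the groups overlapped. The means were 1.39 ± 0.0709 and 1.29 ± 0.0349 (SD, n = 3), a log2 difference of -0.10 (exact permutation test, two-sided p = 0.2). Without control replicate 3, the library that made the overlap, the difference was -0.145 and every PIO ratio was below every control ratio. Leaving out that library fixed this separation, so the exact permutation p of 0.1, the smallest that 2 against 3 libraries allow, adds no support. With any other library left out the difference lay between -0.120 and -0.080 (exact permutation p from 0.2 to 0.3). Ferritin to Slc40a1 was 5756, 5000.3 and 6925 in control and 5616, 3794 and 7649 with PIO. This ratio was not tested because Slc40a1 was too low, and its log2 difference of -0.10 turned to 0.026 without control replicate 3 and to 0.166 without PIO replicate 2.

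**Figure D4:**
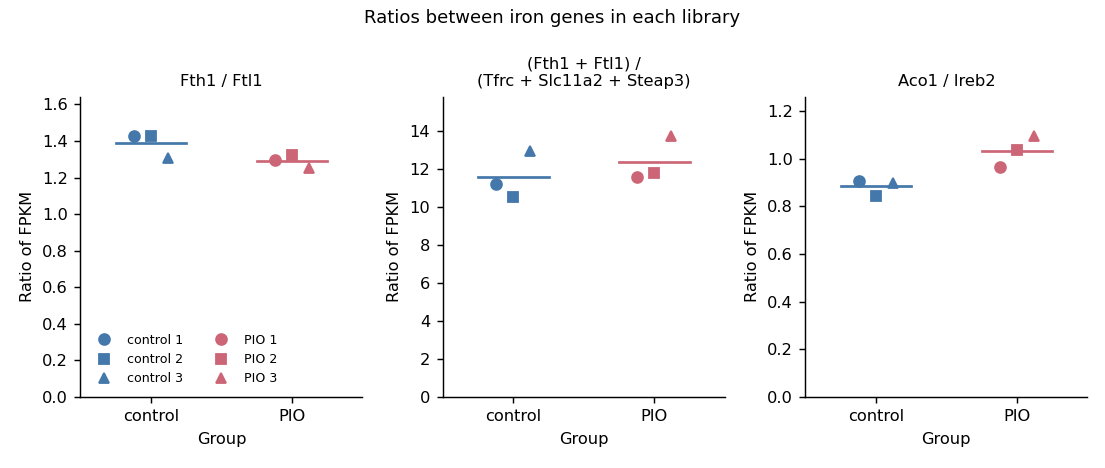
Ratios of FPKM in each library for the ferritin chains, for ferritin over the 3 uptake genes, and for Aco1 over Ireb2, with control in blue, PIO in red, symbols for replicate numbers, bars at group means and axes from 0. The groups overlap in the first and second panel, where replicate 3 is the lowest PIO library in the first and the highest of both groups in the second, and they are apart in the third.

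Beside these 10 genes, 82 other genes of iron handling were looked up in 6 lists, and 61 of them were abundant enough to test. None of the 61 passed limma with adjustment over all genes (0 called, lowest adjusted p = 0.257), and limma-voom called 0. An unadjusted p under 0.05 was found for 7 of the 61, against 12.5% of all genes in either direction, a share near the background. Of the 61, 39 had a positive and 22 a negative log2 fold change, and the median was 0.04, beside 53.97% positive and a median of 0.0094 over all genes tested. PIO values lay above all control values in 10 (16.4%) and below them in 4 (6.56%), beside the 10.5% and 8.09% of all genes.

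Mitochondrial iron import and iron-sulfur assembly was the list with the most tested genes, 21 of 21, of which 16 were higher and 5 lower, with a median of 0.07. Glrx5, a glutaredoxin of iron-sulfur assembly, went from 23.2 ± 1.99 to 26.4 ± 0.966 FPKM (SD, n = 3, log2 difference 0.18, limma adjusted p = 0.353). Nfs1, the cysteine desulfurase, was picked after its values were seen, since it lies far from the rest of its list, and falls outside the rule for named genes, as do Pcbp2, Tfr2, Fbxl5 and the ferroxidase genes given here. It measured 2.24, 2.01 and 3.13 FPKM in control replicates 1 to 3, with 0.637, 0.521 and 2.75 FPKM in PIO replicates 1 to 3 (-0.91, limma adjusted p = 0.402), so that PIO replicate 3 lay with the control libraries. In the list of cytosolic iron-sulfur assembly 7 of 9 were higher, with a median of 0.05, and it held Ciapin1 (0.11, limma adjusted p = 0.476) and Nubp2 (0.07, limma adjusted p = 0.495).

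Of the other genes of uptake and endosomal release 11 of 19 were tested, 5 higher and 6 lower, with a median of -0.05. The 2 with the smallest p were Slc22a17, which encodes a receptor for lipocalin 2 (0.14, limma adjusted p = 0.413), and Exoc6, an exocyst subunit gene (-0.07, limma adjusted p = 0.515). The second transferrin receptor Tfr2 was under the minimum for the test, at 0.0881 to 0.206 FPKM in control. Of the genes of export, ferroxidases and the hepcidin axis only 6 of 15 were tested, 3 higher and 3 lower. The ferroxidase genes Heph, Hephl1 and Cp stayed under 0.1 FPKM in every library. Furin, a proprotein convertase, went from 7.07 ± 0.558 to 8.52 ± 0.503 FPKM (SD, n = 3; 0.25, limma adjusted p = 0.308), and the heme transporter gene Slc48a1 had 0.10 (limma adjusted p = 0.503).

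Among 7 tested genes of iron sensing 4 were higher and 3 lower. Hif1a, a hypoxia-inducible factor subunit whose hydroxylases need iron, measured 39.4, 40.9 and 41.1 FPKM in control replicates 1 to 3 and 36.0, 31.5 and 31.3 FPKM in PIO replicates 1 to 3. Its groups were apart, and it had the lowest adjusted p of the 61 genes (log2 fold change -0.30, SE 0.06, limma adjusted p = 0.257). Keap1, which holds NRF2 in check, had 0.12 (limma adjusted p = 0.413). Fbxl5, the ligase subunit that marks iron regulatory protein 2 for degradation, was at 17.8 ± 0.257 and 18.1 ± 1.61 FPKM (SD, n = 3; 0.02, limma adjusted p = 0.897). Of 7 tested genes of iron chaperones and ferritin turnover 4 were higher and 3 lower. Cd63, a tetraspanin gene tied to ferritin secretion, went from 281 ± 4.12 to 305 ± 14.02 FPKM (0.12, limma adjusted p = 0.340). The autophagy receptor gene Tax1bp1 had -0.07 (limma adjusted p = 0.522).

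**Figure D5:**
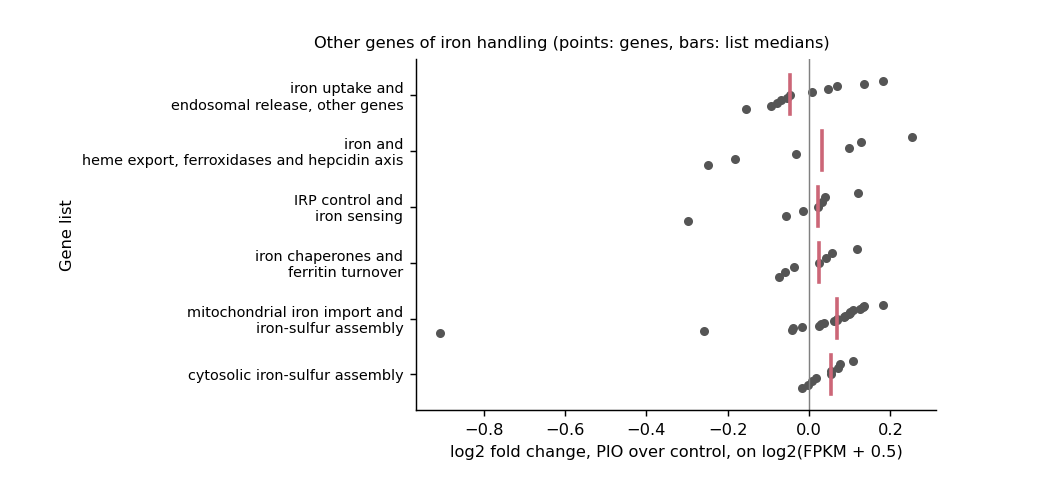
Log2 fold changes of PIO over control for the 61 other tested genes of iron handling, 1 point per gene in 6 lists, with red bars at list medians and a line at 0. Medians lie between -0.05 and 0.07, and the point far to the left is Nfs1.

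Hmox1, the inducible heme oxygenase that frees iron from heme, is the gene next to this set that passed the test. It measured 155, 157 and 154 FPKM in control and 189, 198 and 195 FPKM with PIO, all above control, and its log2 value differed by 0.32 (limma adjusted p = 0.026). Nqo1, another NRF2 target, was at 622 ± 23.2 and 689 ± 18.3 FPKM (SD, n = 3, log2 difference 0.15, limma adjusted p = 0.297). Slc7a11, a cystine transporter gene also known as an NRF2 target, went the other way, at 1.46, 1.49 and 4.03 FPKM in control and 1.151, 0.978 and 1.002 FPKM with PIO (-0.76, limma adjusted p = 0.375). Its PIO values lay below all control values, and control replicate 3 stood far above the other 5 libraries. The groups overlapped for the heme oxygenase gene Hmox2 (0.0023) and the biliverdin reductase genes Blvra (0.067) and Blvrb (0.026), with limma adjusted p from 0.557 to 0.990.

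The genes whose log2 values followed those of 3 members most closely over the 6 libraries were found among the 3973 tested genes whose mean reached 20 FPKM. For Fth1 they were Fxyd5 (Pearson r = 0.998), Vps29 (0.994) and Gipc1 (0.988). For Ftl1 they were Htra1 (0.992), Cyth4 (0.991) and Znrf1 (0.990). For Tfrc they were Polr2b (0.997), Morc2 (0.989) and Hnrnpm (0.987). With 6 points and so many genes such values describe a pattern only, and the libraries share their depth and handling. Polr2b showed the same low replicate 3 as Tfrc, at 57.6, 57.9 and 54.5 FPKM in control and 57.6, 57.7 and 55.1 FPKM with PIO.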

How the data were processed

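The authors deposited one FPKM value for each gene in each of the 6 libraries. Tools named, without their roles, per the submitters' processing notes include HISAT2 2.2.1.0, Cufflinks, HTSeq and Trimmomatic 0.36. The notes name GRCh38, a human build, while gene identifiers are those of the rat, so the build behind the values is unclear. The coordinates printed are those of RefSeq promoter windows in GRCr8, not of the deposited values. How reads shared among gene copies were assigned is not stated.

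Whole reads and gene lengths were recovered from the FPKM for 99.97% of 15429 genes above 0 (tolerance 0.01 of a read). Reads carry no molecular identifiers, so counting errors cover counting only. The main test was limma 3.58.1 (R 4.3.3) on log2(FPKM + 0.5), run on genes whose mean reached 0.5 FPKM. The model held the group alone and used a variance trend, with two-sided p-values adjusted by Benjamini-Hochberg over all genes (threshold 0.05). Folds on this scale understate changes of low genes. Ratios were tested with exact permutation over libraries. Older symbols were matched through RefSeq gene identifiers of GRCr8. From each list the 2 genes with the smallest p and any past the threshold were named, and beside them all 10 members, neighbouring and marker genes, and 3 genes most like each of 3 members. One gene that this rule names is not reported here.

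The members and lists were chosen with earlier results of these data known. The code was tested on simulated data. Alternatives were pseudocounts of 0.1 and 1, no minimum and a minimum mean of 5 FPKM, rescaling to equal sums, median-of-ratios scaling, no variance trend, the replicate number as a block, limma-voom on recovered reads and each library left out. Tables and figures were made with Python 3.11.15, numpy 2.4.6, pandas 2.3.3 and matplotlib 3.10.9.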

Additional observations from a re-analysis of the deposited data

How the results depend on the processing

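No member and none of the other iron genes passed the test under any of the 15 alternatives run, with adjusted p of members between 0.196 and 0.981. Of 135 log2 fold changes of the 9 tested members under these alternatives, 130 kept their sign and 5 turned, all of them in Tfrc or Pcbp1, and the cause was not tested. Tfrc was -0.014 with each library rescaled to the same sum and ran from -0.065 to 0.075 when 1 library was left out, and Pcbp1 ran from -0.015 to 0.083. Over all genes, 4 passed as reported, 1 without a minimum (where more genes were tested), 2 without a variance trend, 7 by limma-voom on recovered reads, and 2 to 4 when 1 library was left out, with 2 without control replicate 1. With the replicate number as a block 3 genes and 0 members passed, and the exact paired sign-flip test of the ratios of Fth1 to Ftl1 and of ferritin to uptake gave p = 0.25, the smallest that 3 pairs allow. Deviations from the group means of same-numbered libraries correlated at -0.068, 0.028 and 0.078, and only those of number 3 correlated best with each other, so the numbers were not taken as pairs. The 25 to 49 reads per library limit what can be said of Slc40a1.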
